A study of Mus musculus with 7 samples.

Results

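The noncoding RNA (ncRNA) loci near *Creb5*, *Akap13* and *Psme4* formed 3 long domains in a list of *Tbx5*-dependent ncRNAs from the adult mouse left atrium. A locus belonged to them when its deposited neighbouring gene symbols included *Jazf1*, *Creb5*, *Sv2b*, *Akap13*, *Acyp2* or *Psme4*, which gave 49 of 1489 loci (3.29%). There were 21 loci at *Jazf1* and *Creb5* on chromosome 6, 13 at *Sv2b* and *Akap13* on chromosome 7, and 15 at *Acyp2* and *Psme4* on chromosome 11. The domains were selected on values of this same list, namely the number and position of loci in a run and the deposited mark for transcription from both strands. Position, number and mark are therefore given as descriptions, with no test.

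Non-polyadenylated RNA had been sequenced from the left atrium of 3 control libraries (R26CreERt2) and 4 *Tbx5* knockout libraries (Tbx5 fl/fl;R26CreERt2). All came from male mice of mixed strain at 6 to 8 weeks of age. The Cre recombinase of both genotypes was activated by tamoxifen and driven by the ubiquitous R26 promoter, so the excision of *Tbx5* was not restricted to cardiomyocytes, and atria were collected a week after tamoxifen. The deposited list gives positions, strands, neighbours and conservation but no level per library, so the labelled tissue could not be checked against marker genes and no spread between animals can be given. No direction of change was assigned to any locus, because the labels of the table point both ways.

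Active enhancers are commonly transcribed into ncRNAs that are short and poorly polyadenylated, often from both strands, whereas transcription along a gene body or past it leaves longer RNA on a single strand. TBX5 is a T-box transcription factor needed for the rhythm of the adult atrium, and the loci were listed because they were called dependent on it. Of the 6 genes, *Creb5* encodes a basic leucine zipper factor of the CREB and ATF family that binds cAMP response elements, and *Jazf1* a zinc finger protein found with the NuA4 acetyltransferase complex. *Akap13* encodes an A-kinase anchoring protein, which holds protein kinase A at set places in the cell, and *Sv2b* a glycoprotein of synaptic vesicles. *Psme4* encodes the proteasome activator PA200, and *Acyp2* an acylphosphatase.

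A pair of sequences carries the position of the chromosome 6 loci against *Creb5*. The first is the *Creb5* promoter, shown because the first locus starts inside this window at base 241 and takes in its last 60 bases. It spans chr6:53287053-53287352 on the plus strand of GRCm38 (RefSeq, GRCm38.p6), and the capitals mark the cAMP response element TGACGTCA, at bases 206 to 213. The second is exon 5 of a *Creb5* coding transcript, chr6:53447546-53447718 on the plus strand (GENCODE M21), shown because a listed locus contains all 173 of its coding bases.
Creb5 promoter: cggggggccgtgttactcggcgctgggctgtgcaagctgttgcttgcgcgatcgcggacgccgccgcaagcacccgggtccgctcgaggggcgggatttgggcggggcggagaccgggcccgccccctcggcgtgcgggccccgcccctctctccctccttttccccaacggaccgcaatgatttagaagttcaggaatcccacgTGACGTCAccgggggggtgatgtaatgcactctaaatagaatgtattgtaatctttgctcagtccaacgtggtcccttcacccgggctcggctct
Creb5 exon 5: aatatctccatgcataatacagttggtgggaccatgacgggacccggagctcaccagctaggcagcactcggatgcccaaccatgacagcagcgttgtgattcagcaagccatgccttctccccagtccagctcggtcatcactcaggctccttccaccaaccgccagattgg
The cAMP response element was searched as TGACGTCA, which reads the same on both strands, and it was found in 588 of 32851 RefSeq promoters of this length (1.79%). Of the 11 promoters of the 6 genes it was found in this *Creb5* promoter alone. The T-box motif, searched as AGGTGTG on both strands, was found in 2 of the 11 (an internal *Jazf1* promoter and a *Sv2b* promoter) and in 5.84% of all promoters. A match is a description of letters and was not tested as a binding site. The *Creb5* promoter had a GC content of 64.7% and 31 CpG dinucleotides, against a median of 52.7% and 7 over all promoters.

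The 3 gene pairs had the same arrangement. In each, the left gene was on the minus strand and the right gene on the plus strand, so that their 5' ends faced each other. *Jazf1* (chr6:52768797-53068631) and *Creb5* (chr6:53287270-53700376) lay 218.638 kb apart, *Sv2b* (chr7:75114894-75309262) and *Akap13* (chr7:75455534-75754609) 146.271 kb apart, and *Acyp2* (chr11:30505991-30649587) and *Psme4* (chr11:30771726-30880361) 122.138 kb apart. This head-to-head arrangement held for 4431 of 19075 gaps between neighbouring coding genes (23.2%), for 28.2% of the 2841 gaps of 100 kb or more, for 142 of the 748 gaps with any listed locus (19.0%), and for 11 of the 33 gaps that held at least 5 listed loci (33.3%). The gaps at *Akap13* and *Psme4*, with 13 and 15 loci, are themselves among the 142 and the 11. The gap between *Jazf1* and *Creb5* held 0 listed loci and is in neither of these counts. With 3 pairs chosen for their runs, no test was made of the arrangement.

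The domains differed in where the loci sat. The gap between *Jazf1* and *Creb5* held no listed locus, and all 21 loci of chromosome 6 lay inside the body of *Creb5*. All 13 loci of chromosome 7 and all 15 of chromosome 11 lay in the gap between their genes. Of the 1440 other listed loci, 1344 lay outside coding genes (93.3%). Loci covered 33.3% of the gap between *Sv2b* and *Akap13* and 7.13% of that between *Acyp2* and *Psme4*. Within this list, 0 other listed loci lay within 1 Mb of each domain. No such count is given for other runs. The rule also takes every locus that names 1 of the 6 genes as a neighbour into a domain. Nothing particular to the domains is therefore read from this distance. The paper reports more *Tbx5*-dependent ncRNAs than the list holds, so an unlisted one could lie closer. The nearest other listed locus was 1434.244 kb from the *Creb5* loci, 1550.81 kb from the *Akap13* loci and 2481.373 kb from the *Psme4* loci.

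**Figure D1:**
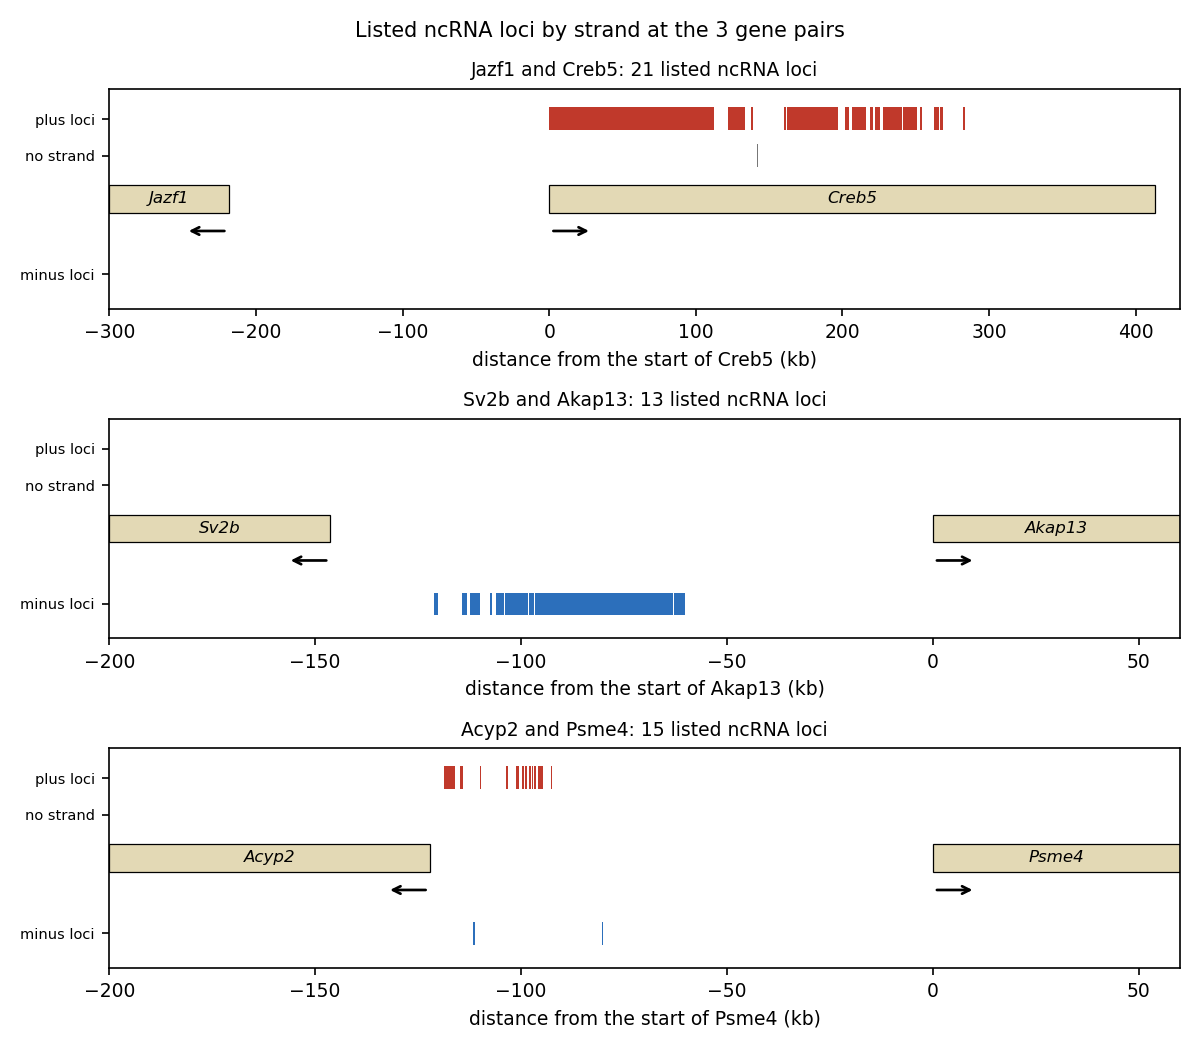
Position of the 49 listed loci by strand at the 3 gene pairs, as distance in kb from the start of *Creb5*, *Akap13* or *Psme4*. Coloured marks are loci (the thinnest are widened to stay visible), boxes are the bodies of the genes, cut at the frame, and arrows give the direction of transcription. The loci of *Creb5* reach 68.6% of the way into the gene body and cover 50.9% of it, and those near *Akap13* and *Psme4* lie in the gap between the genes.

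Strand was nearly uniform within a domain. On chromosome 6, 20 loci were on the plus strand, the strand of *Creb5*, and 1 had no strand (XLOC_048435, 262 bp). On chromosome 7 all 13 were on the minus strand, which is the strand of *Sv2b* and antisense to *Akap13*. They lay upstream of both genes, from 25.214 kb beyond the 5' end of *Sv2b* to 60.119 kb before that of *Akap13*. On chromosome 11, 13 loci were on the plus strand, the strand of *Psme4* and antisense to *Acyp2*, and 2 short loci were on the minus strand. The plus-strand loci began 3.497 kb from the 5' end of *Acyp2* and ended 92.376 kb short of *Psme4*. None of the 49 loci had an entry in the deposited column of linked genes, where 384 of the 1440 others had one (26.7%). The heading of that column names nearest genes and a single direction of change (dn). An empty entry therefore does not show that *Creb5*, *Akap13*, *Psme4* or the other members are not targets.

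All 49 loci carried the deposited mark for transcription from both strands (100%, 95% Wilson interval 92.7% to 100%), where 348 of all 1489 loci did (23.4%) and 299 of the 1440 others did (20.8%, 18.7% to 22.9%). The mark was among the values that chose the domains, so nothing is read from the difference. The paper calls a transcript bidirectional when it is read from both strands, and gives no distance or threshold for this. A listed locus on the opposite strand within 1 kb was found for none of the 49. No such share over the other listed loci is given here, so this is not read as particular to the domains. On chromosome 11, the plus-strand locus XLOC_007092 (350 bp) and the minus-strand locus XLOC_009006 (61 bp) were the closest such pair, 1.476 kb apart. On chromosome 6 the nearest listed locus of the opposite strand was at least 1434.24 kb away, and on chromosome 7 at least 1550.81 kb away. A partner transcript of the opposite strand, if present, was therefore not among the listed loci of these 2 domains.

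Within a run the mark was nearly uniform. A run is a series of loci on the same strand with at most 10 kb between neighbours. Of the 165 runs of at least 2 loci in the whole list, 40 had the mark on every locus, 124 on none, and 1 was mixed. Marks were also found outside runs, on 201 of 824 loci in no run (24.4%) against 147 of 665 loci in runs (22.1%). Of the 49 members, 45 lay in runs and 4 in none, and the marks of a run do not count as separate observations. Of the 11 runs of at least 10 loci, 3 were marked throughout and these were the runs of the 3 domains. The other 8 long runs held 202 loci, of 11 to 49 loci each, and 0 of them was marked. Those 8 runs were covered by loci over 10.1% to 91.5% of their span, with a median locus length from 182 to 7742 bp, and the domains fell inside both ranges. Marked gaps between coding genes were found both with and without loci of both strands. Of the 27 gaps of at least 2 loci with both strands listed, 5 were marked throughout and 20 were not marked at all, against 41 and 118 of the 161 gaps with a single strand listed.

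**Figure D2:**
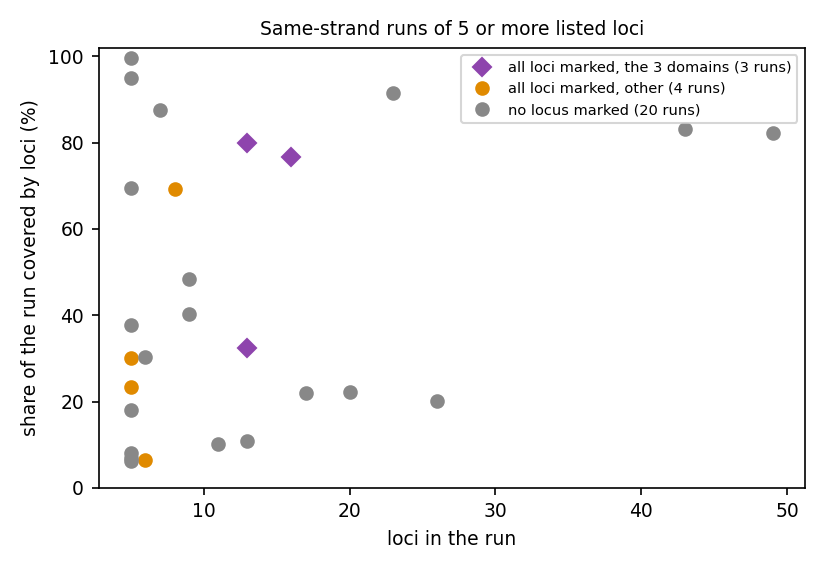
Same-strand runs of 5 or more listed loci, by the number of loci in the run (x axis) and the percent of the span of the run covered by loci (y axis). Each point is 1 of 27 runs. The 3 domains (diamonds) are the marked runs with most loci, at 16, 13 and 13 loci, and unmarked runs lie above and below them in coverage.

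The longest run had 16 loci in *Creb5*, 13 near *Akap13* and 13 near *Psme4*. It spanned 108.1 kb from 53447542 to 53555641 on chromosome 6, 60.938 kb from 75334477 to 75395414 on chromosome 7 and 26.265 kb from 30653085 to 30679349 on chromosome 11. In *Creb5* and near *Akap13*, loci filled most of the span, 76.6% (82.849 kb) and 79.9% (48.696 kb). Near *Psme4* they filled 32.5% (8.523 kb). The run near *Psme4* therefore held as many loci as the one near *Akap13* in a shorter span and at a lower coverage.

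The loci of the domains differed in length in the same order. The length is the genomic span of a locus, with introns included. Its median was 2972 bp in *Creb5* (95% order-statistic interval 1525 to 7607, n = 21), 1281 bp near *Akap13* (201 to 4539, n = 13) and 444 bp near *Psme4* (350 to 695, n = 15), and 190 bp over the 1440 other loci (176 to 202). The interval of *Creb5* lay above that of *Psme4*, while the interval of *Akap13* overlapped both. Of the loci in *Creb5*, 19 of 21 reached 1 kb, as did 9 of 13 near *Akap13*, 1 of 15 near *Psme4* and 349 of the 1440 others (24.2%). The intervals cover counting error only, and loci of the same run share their position and are not independent.

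The spread within a domain was wide. In *Creb5* the lengths ran from 150 bp at XLOC_045362 (53540228 to 53540377) to 112172 bp at XLOC_045325 (53287293 to 53399464). Near *Akap13* they ran from 136 bp at XLOC_051622 (75334477 to 75334612), the locus closest to *Sv2b*, to 19940 bp at XLOC_051640 (75358890 to 75378829). Near *Psme4* they ran from 61 bp at XLOC_009006 (30660153 to 30660213) to 2560 bp at XLOC_007089 (30653085 to 30655644), the locus closest to *Acyp2*. A single locus, XLOC_045325, made up 112172 of the 210190 bases covered in *Creb5*. On chromosome 7, XLOC_051640 and its neighbour XLOC_051641 (13551 bp) made up most of the 48696 bases covered. On chromosome 11 no locus came near that size, and the other 14 loci ran from 61 to 771 bp.

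**Figure D3:**
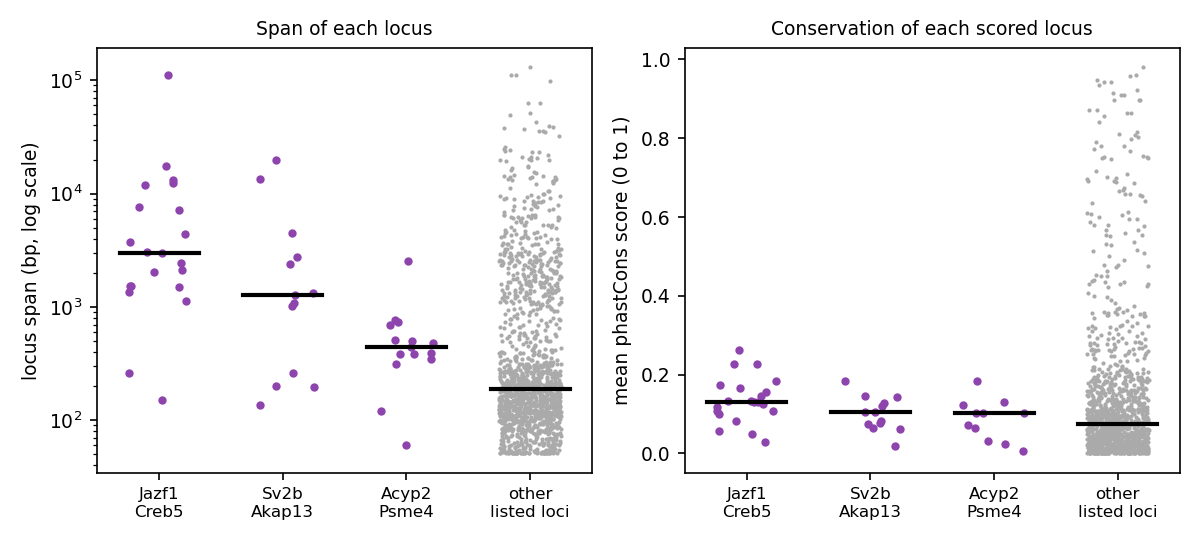
Genomic span (left, bp, log scale) and mean phastCons score (right, 0 to 1) of each locus in the 3 domains and of the other listed loci. Each point is a locus, shifted sideways for display, and the bar is the median. Median span steps down from 2972 to 1281 to 444 bp over the domains, while the median scores of 0.131, 0.106 and 0.102 lie close together.

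The phastCons score is the deposited mean over the bases of a locus of the probability that a base is conserved, from 0 to 1. Its median was 0.131 in *Creb5* (0.107 to 0.165, n = 21), 0.106 near *Akap13* (0.0655 to 0.144, n = 13) and 0.102 near *Psme4* (0.0240 to 0.132, n = 11), against 0.0740 over 1219 other scored loci (0.0656 to 0.0811). The intervals of the domains overlapped each other, and that of *Creb5* lay above that of the other loci. None of the 45 scored loci passed 0.5, where 78 of the 1219 others did, and the loci were not matched for length. The highest scores were 0.262 at XLOC_045386, the last locus in *Creb5* (53569231 to 53570755), 0.183 at XLOC_051642, the first locus of the *Akap13* run (75392631 to 75395414), and 0.183 at XLOC_007102 (30673566 to 30674065). The lowest were 0.0301 at XLOC_045362, 0.0199 at XLOC_051622 and 0.00521 at XLOC_007092. In *Creb5* and near *Akap13* the lowest score thus belonged to the shortest locus. Near *Psme4*, 4 loci had no score (XLOC_009006, XLOC_007097, XLOC_007104 and XLOC_007107).

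The densest stretch of each domain showed the same contrast. Joined at gaps of at most 1 kb, the longest stretch in *Creb5* had 4 loci, from XLOC_045337 to XLOC_045341 (53447542 to 53484315), of 1493, 4392, 17548 and 12347 bp with gaps of 701, 71 and 222 bp. Near *Akap13* it had the 8 loci closest to that gene, from XLOC_051642 to XLOC_051635 (75349531 to 75395414), of 196 to 19940 bp with gaps of 55 to 297 bp. Near *Psme4* it had 8 loci, from XLOC_007099 to XLOC_007106 (30670557 to 30676988), of 313 to 733 bp with gaps of 49 to 768 bp. The stretches near *Akap13* and *Psme4* thus had the same number of loci, but those near *Psme4* were all under 1 kb and their gaps were as long as some of the loci.

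From the 5' end of each series, the later loci near *Akap13* were mostly shorter and farther apart than the earlier ones. The first 3 loci were 2784, 13551 and 19940 bp long with gaps of 191 and 59 bp between them, and the last 3 were 1024, 260 and 136 bp long with gaps of 6060 and 380 bp. Over this domain, Spearman's rank correlation between the order and the length was -0.77 (n = 13 loci), and between the order and the gap to the next locus 0.80 (n = 12 gaps). In *Creb5* the corresponding values were -0.35 (n = 20) and -0.08 (n = 19), and near *Psme4* -0.45 (n = 13) and -0.57 (n = 12). The sign for length was negative in all 3 domains, and that for the gap was positive near *Akap13* alone. These are correlations across loci of a single series, which share an assembly and a region, so no p is given. Some numbers of the assembly are missing from the list, as set out below. The gaps that skip such numbers were among the later ones near *Akap13* (1213, 2641 and 6060 bp). Near *Psme4* they were among the earlier ones (1207, 2013 and 6026 bp). A trend in spacing therefore cannot be told apart from where loci are missing from the list.

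**Figure D4:**
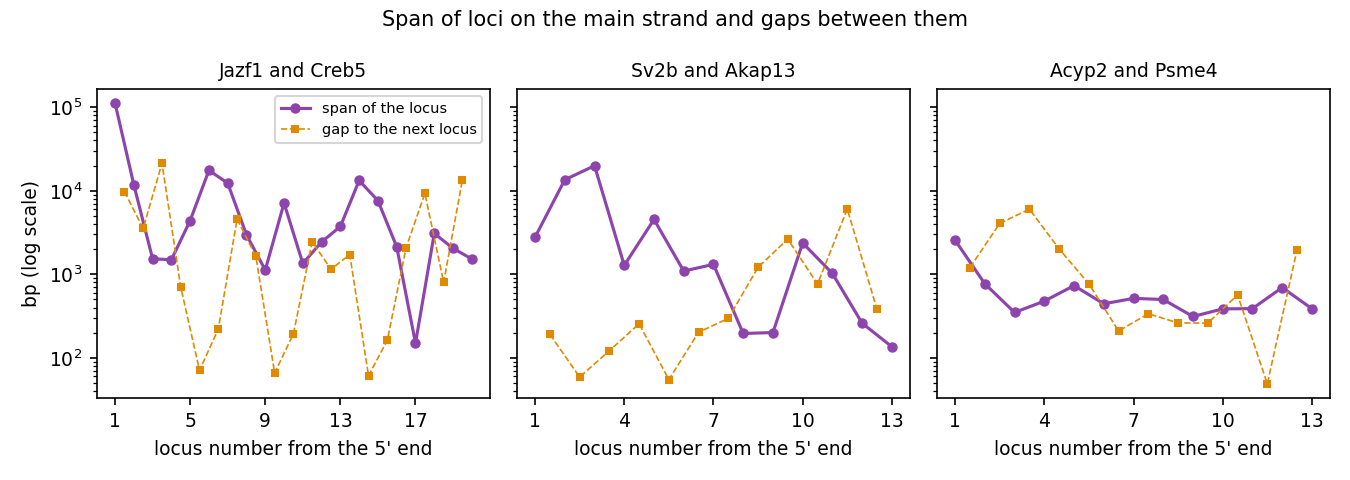
Span of each locus (circles) and gap to the next locus (squares), in bp on a log scale, by the position of the locus from the 5' end of its strand, for the main strand of each domain. Near *Akap13* the spans start at 2784 bp, peak at 19940 bp at the third locus and end at 136 bp, while the gaps start at 191 bp, range from 55 to 6060 bp and end at 380 bp. In *Creb5*, long and short loci are mixed along the series.

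The median gap within the longest run was 802 bp in *Creb5* (61 to 9328 bp, 15 gaps; 1682.5 bp over all members there), 276.5 bp near *Akap13* (55 to 6060 bp, 12 gaps) and 668 bp near *Psme4* (49 to 6026 bp, 12 gaps). The identifiers of the assembly are numbered along a strand, so a jump in number stands for assembled loci that are not in the list. A gap that holds such a locus has to be longer by construction, although a skipped number need not lie inside the gap. Between loci with consecutive numbers, 24 gaps had a median of 216 bp (49 to 4067 bp), and 17 of them were under 300 bp. Between loci with at least 1 number in between, 19 gaps had a median of 2459 bp (701 to 21370 bp), and 0 was under 300 bp. Other runs of the list showed a like split in medians, 261 bp over 268 gaps and 2964.5 bp over 188 gaps. Of these 188 gaps, 2 were under 300 bp. In the *Creb5* domain all 6 gaps between consecutive numbers were 222 bp or shorter. On the main strand, the list held 20 of the 62 numbers from first to last in *Creb5* (32.3%), 13 of 21 near *Akap13* (61.9%) and 13 of 19 near *Psme4* (68.4%). The 42, 8 and 6 numbers in between were not analysed here, and what kept them out of the list was not tested.

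The loci followed *Creb5* from its first exon onwards, on its own strand. The first locus, XLOC_045325, began 23 bases after the GENCODE M21 start of the gene. In the RefSeq promoter printed above it began at base 241, where 250 bases come before the RefSeq start. It thus began before that start. The last locus, XLOC_045386, ended 283.486 kb into the gene by GENCODE M21, which is 68.6% of the 413.107 kb body. The loci covered 50.9% of the body, and the last 129.621 kb held none. Of the 21 loci, 17 lay in introns in the sense direction, 3 overlapped exons in the sense direction (XLOC_045325, XLOC_045329 and XLOC_045337) and the locus with no strand lay in an intron. The first 3 loci, with gaps of 9784 and 3541 bp, lay apart from the run of 16 by 21370 bp, and the last locus lay 13589 bp beyond it.

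The exons of the coding transcript ENSMUST00000047450.9 fell in the loci only in its 5' part. Of its 11 exons 5 lay within loci, and of its 10 exons with coding bases 4 did, which is 443 of 1503 coding bases. Exons 2, 3 and 4, with 54, 94 and 122 coding bases, lay within XLOC_045325. Exon 5, the sequence printed above, lay within XLOC_045337, which began 4 bases before it. Exon 6 lay 317.192 kb from the start of the gene, beyond the last locus. XLOC_045329 overlapped an exon of a *Creb5* transcript that is not coding. The annotation holds coding *Creb5* transcripts with starts at 53287270, 53290423 and 53310871, the latter pair inside XLOC_045325, and further starts at 53573300 and 53573376. The last locus ended 2544 bases before the first of these internal starts.

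**Figure D5:**
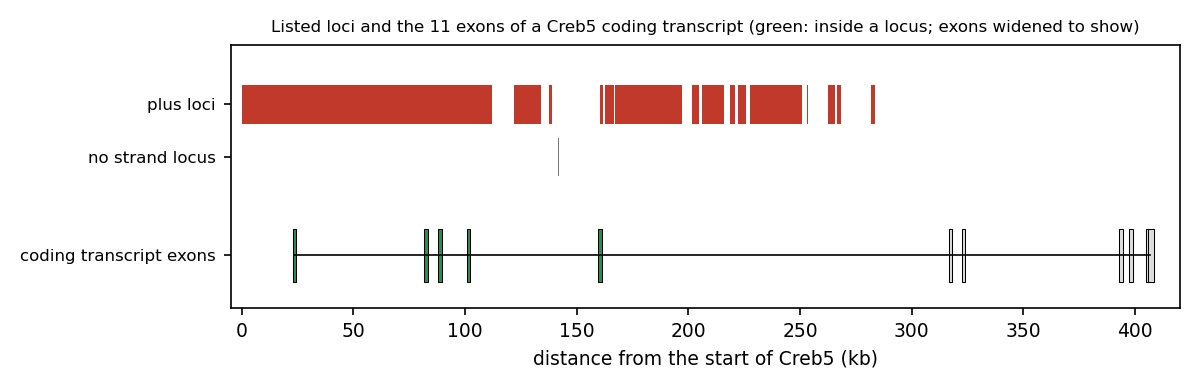
The 21 listed loci of *Creb5* and the exons of transcript ENSMUST00000047450.9, by distance in kb from the start of the gene. Red marks are plus-strand loci, the grey mark is the locus with no strand, green boxes are the 5 exons within a locus and pale boxes the other 6, all widened to be visible. The loci end at 283.486 kb, before exon 6 at 317.192 kb.

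Loci that overlapped coding sequence in the sense direction numbered 2 of 49 in the 3 domains, XLOC_045325 and XLOC_045337, and 5 of the 1440 others (0.347%). Intronic sense loci numbered 17 of 49 (34.7%), all in *Creb5*, and 74 of the 1440 others (5.14%). XLOC_045325 was the only one of the 49 loci with a coding start within 1 kb of it, and 9 of the 1440 others had one (0.625%). Within 2 kb the counts were 1 of 49 (2.04%) and 39 of 1440 (2.71%). The paper kept ncRNAs that lay 1 kb or more from known coding starts. By the annotation used here, XLOC_045325 and those 9 loci do not meet that distance, and the reason was not tested. The list itself is labelled distal2k. If that label means 2 kb from such starts, the 1 and 39 loci counted at 2 kb do not meet it. Reads of the unspliced *Creb5* transcript and reads of separate ncRNAs of the same strand cannot be told apart in these positions. No level of *Creb5* was examined.

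Near *Akap13*, 1 of the 13 loci had a gene in the deposited annotation column. XLOC_051640, the longest, contained *Gm10161* (chr7:75366055-75366258), a processed pseudogene on the plus strand and so opposite to the locus. That column was filled for 1 of 49 loci over the domains and 201 of the 1440 others, and was empty for the 21 loci inside *Creb5*. The pseudogene is shown because it is the only gene in that column for the 49 loci and because its closest coding transcript, *Rps28*, which encodes a protein of the small ribosomal subunit, matched 189 of its 204 bases (92.6%).
Gm10161: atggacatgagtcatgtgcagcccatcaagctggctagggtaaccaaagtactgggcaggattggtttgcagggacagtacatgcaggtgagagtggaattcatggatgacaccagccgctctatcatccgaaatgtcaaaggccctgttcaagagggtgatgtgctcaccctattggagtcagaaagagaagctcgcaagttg
All 49 loci had the same span in mm10 and in the deposited mm9 positions, as did 1488 of all 1489.

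Of 34 genes related to the 6 members, 3 were neighbours of listed loci (8.82%), where 3685 of 21924 coding genes were (16.8%). The counts by family include the members, which the rule selected. Of 11 genes of the CREB and ATF family, 3 were neighbours of any listed locus (*Creb5*, *Crem* and *Atf7*). The counts were 1 of 13 A-kinase anchoring genes (*Akap13*), 1 of 4 proteasome activator genes (*Psme4*), 1 of 2 acylphosphatase genes (*Acyp2*), 2 of 3 genes of the synaptic vesicle glycoprotein family (*Sv2b* and *Sv2c*) and 1 of 7 genes in a set of *Jazf1*, 4 NuA4 genes, the nuclear receptor gene *Nr2c2* and the Polycomb gene *Suz12* (*Jazf1*). None of these genes was linked to a locus in the deposited column of linked genes, which covers nearest genes of a single direction. Outside the 3 domains *Crem*, *Atf7* and *Sv2c* each had a single locus, upstream and in antisense, and the other 31 relatives had none. The locus of *Crem*, which encodes a modulator of cAMP response elements, was 83 bp long and 109 kb away, was not marked as bidirectional and had a score of 0.957. That of *Atf7*, which encodes another factor of the family, was 220 bp long and 55.1 kb away and not marked, with a score of 0.107. That of *Sv2c*, a paralog of *Sv2b*, was 557 bp long, 244 kb away and marked, with a score of 0.772. Single loci near *Crem* and *Sv2c* therefore had higher scores than any of the 45 scored loci of the domains, with no match for length.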

How the data were processed

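Total RNA of 7 left atrial libraries (3 control, 4 knockout) was depleted of ribosomal and polyadenylated RNA and sequenced as directional single-end reads of 50 bp. Per the submitters' processing notes, FastQC, TopHat2 (2.0.13 and 2.0.10), Cufflinks, featureCounts, DESeq and Picard were used with builds mm10 and mm9. The authors assembled transcripts de novo, removed coding genes, tested the genotypes and listed distal ncRNAs. The paper then kept those near *Tbx5*-dependent coding genes whose change had the same direction. Whether the deposited list had passed that step was not checked. The 2 deposited tables held the same bytes, and 1 was read. Of 1490 rows 1 was emptied for this work. The deposited phastCons score was averaged by the authors over each locus without bases that lack a score. Positions are 1-based mm10. No counts were given, so the depth of each library could not be computed here. The paper gives the reads per sample as a range.

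Members and gene lists were chosen with earlier results of these data known. Positions were compared with GENCODE M21 on GRCm38, which may not be the annotation version of the authors. Runs joined loci of a strand at most 10 kb apart. Intervals are at 95%, by the Wilson method for shares and from order statistics for medians, and cover counting error only. No test was made, because the list has no value per library. Named loci were the first, last, longest, shortest, most and least conserved and gene-nearest locus of each domain, and those annotated. Others named were chosen after their values were seen. Planned repeat shares and motif windows around loci were not run, since no genome sequence was used, and promoters were searched in their place. Promoters (250 bases before to 50 after a start) came from RefSeq. The run finder was tested on simulated data. Python 3.11.15, pandas 2.3.3, numpy 2.4.6 and scipy 1.17.1 were used.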

Additional observations from a re-analysis of the deposited data

How the results depend on the processing

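Over 24 results and 42 alternatives, 36 values stayed within the interval of the main value or, for counts, within 1.5 times of it, and 6 moved further. Within such an interval (163 to 2082 bp), the median gap in *Creb5* went from 802 bp in the longest run to 1682.5 bp over all members. With neighbours joined up to 1 kb in place of 10 kb, which by construction splits a run at every wider gap, the longest run had 4 loci in *Creb5*, 8 near *Akap13* and 8 near *Psme4*. Bidirectional was also read as having, in the list, an opposite-strand neighbour at most 1 kb away. The share was then 0% in each of the 3 domains, with no share over the other loci beside it. The cause of the difference from the deposited mark was not tested. With neighbours joined up to 50 kb the longest runs had 20, 13 and 13 loci. Counting the mark by run, searching promoters in place of windows around loci and counting the locus with no strand as plus were chosen after seeing the data. Repeat shares and motif windows were not run, and the family genes had no alternative. No paired analysis was possible because the list holds no value per library and the labels carry no replicate numbers. The number of loci limits the precision, and the read depth of each library could not be compared.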
